A study of Mus musculus with 8 samples.

Results

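A set of 10 genes of fat cells and of lipid storage was followed in dystrophic and normal mouse muscle. They are the adipokines Adipoq, Lep, Retn and Cfd, the lipid droplet proteins Plin1 and Cidec, the transcription factor Pparg, the fatty acid carrier Fabp4, the lipase Lpl and the carboxylesterase Ces1d. They were taken by gene symbol, as 10 of the 55401 genes in the table, and the set was drawn up with earlier results of these data known. Whole tibialis anterior (TA) muscles came from male mice at 6 months of age, 4 wild type (WT, C57/Bl6) and 4 mdx5cv. The mdx5cv mouse carries a mutation of the dystrophin gene on the same strain and serves as a model of Duchenne muscular dystrophy. Both groups were otherwise untreated as far as the labels say, and the muscles of a group are called WT 1 to WT 4 and mdx5cv 1 to mdx5cv 4 after their labels. Nothing in the labels says that each muscle came from a separate mouse, so p-values measure only the spread between these samples.

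Fat cells in muscle lie between the fibers and store triglyceride in a large droplet coated by perilipin 1 and CIDEC. They secrete adiponectin, leptin, resistin and the complement protease adipsin, and PPARG and the C/EBP factors switch on most of their genes. Lipoprotein lipase releases fatty acids from circulating triglyceride at the capillary wall, and FABP4 carries fatty acids inside adipocytes, capillary endothelial cells and macrophages. In a whole muscle, fewer cells of a type and less RNA per cell cannot be told apart.

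The libraries held 13175524 to 14921057 reads assigned to genes. Values are normalized counts, that is reads divided by a size factor for each library, which was 0.873 to 0.944 in WT and 1.06 to 1.25 in mdx5cv muscle. Dmd, the mutated gene, had 6954 ± 857 normalized counts in WT and 3964 ± 388 in mdx5cv muscle (mean ± SD, n = 4 each, as throughout), with all mdx5cv values below all WT values. The 8 muscle fiber markers were present in every library, and their sum was 1042910 to 1249370 normalized counts in WT and 718537 to 1108170 in mdx5cv muscle. Their median log2 fold change was -0.39, and 4 of the 8 were lower at the adjusted p alone, against 20.1% of all genes tested. Mb, which encodes myoglobin, was called lower (-1.59, adjusted p = 8.97e-05). Acta1, Myh4, Myh1 and Pvalb lay at -0.15 to -0.07 and did not pass the test. The part of this uneven shift of fiber markers in the falls described below was not tested. The 20 most abundant genes took 57.9% to 62.7% of the reads in WT and 52.1% to 58.2% in mdx5cv muscle.

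The promoters of the adipocyte genes are described first, although they were searched after the fold changes were known. RefSeq windows reaching from 250 bases before to 50 bases after a start site were at hand for 7 of the 10 genes (all but Fabp4, Lpl and Ces1d), with 10 windows in all, on GRCm38.p6. Shown are the 120 bases before a start site of the 3 adipocyte genes that passed the threshold given below, a choice made by their fold changes. They run 5′ to 3′ on the gene's strand, for Lep (chr6:29060101-29060220, plus strand), Adipoq (chr16:23146416-23146535, plus strand) and Cidec (chr6:113435761-113435880, minus strand). Capitals mark a match to the C/EBP motif TTGCNNAA.
Lep: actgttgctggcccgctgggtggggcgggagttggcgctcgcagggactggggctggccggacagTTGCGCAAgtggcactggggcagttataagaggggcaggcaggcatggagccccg
Adipoq: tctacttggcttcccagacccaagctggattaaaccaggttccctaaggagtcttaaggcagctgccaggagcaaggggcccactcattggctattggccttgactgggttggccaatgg
Cidec: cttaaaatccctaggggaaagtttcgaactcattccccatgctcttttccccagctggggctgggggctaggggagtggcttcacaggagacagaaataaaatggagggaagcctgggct

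The Lep match, TTGCGCAA, lay 55 to 48 bases before the start and reads the same on both strands. On either strand the C/EBP motif stood in 4 of the 10 windows (1 each of Lep, Plin1, Cidec and Pparg) and in 10.8% of all 32851 RefSeq windows of this length. Plin1 held it at 58 to 51 bases before its RefSeq start, as TTGCCCAA, and again further upstream, whereas the match of Cidec belonged to the window of its other start site. The Adipoq, Retn and Cfd windows did not hold these letters. The nuclear receptor motif AGGTCA stood in 2 of the 10 windows, both of Pparg, and in 16.3% of all windows. The same motif repeated directly with 1 base between, the element that PPARG binds together with RXR, stood in none of the 10 windows and in 13 of all windows. TATAAA stood in 1 window, of Pparg, on the strand opposite to the gene, and in 13.6% of all. These matches describe letters in short windows, not bound sites.

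To ask how the 10 genes differed between dystrophic and normal muscle, log2(normalized count + 1) was compared with limma over all 13677 genes whose mean over the 8 libraries reached 10 normalized counts. A gene was called at a Benjamini-Hochberg adjusted p under 0.05 and a log2 fold change of at least 1 in size. Ces1d, Lep, Adipoq and Cidec were called lower in mdx5cv muscle, and none of the 10 was called higher, by limma, edgeR or DESeq2. Ces1d fell furthest, with a 42.1-fold lower mean. Fabp4 and Lpl also fell, each by 0.92 on the log2 scale, which is less than the fold threshold. Plin1 and Cfd had lower means and Pparg had a higher mean, without passing the test, and Retn was too low to be tested. The mean was thus lower in mdx5cv muscle for 9 of the 10 genes.

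Of the 9 genes tested, 4 were called lower, where 3.27% of all genes tested were called lower and 10.3% were called higher. At the adjusted p alone 6 were lower, against 20.1% of all genes tested. In 5 of the 9 all mdx5cv muscles lay below all WT muscles, against 19.8%. These counts are a description, since Lep and Cidec had means under 10 in mdx5cv muscle and entered the test through their WT level. The plot of normalized counts by muscle shows the 10 genes side by side.

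**Figure D1:**
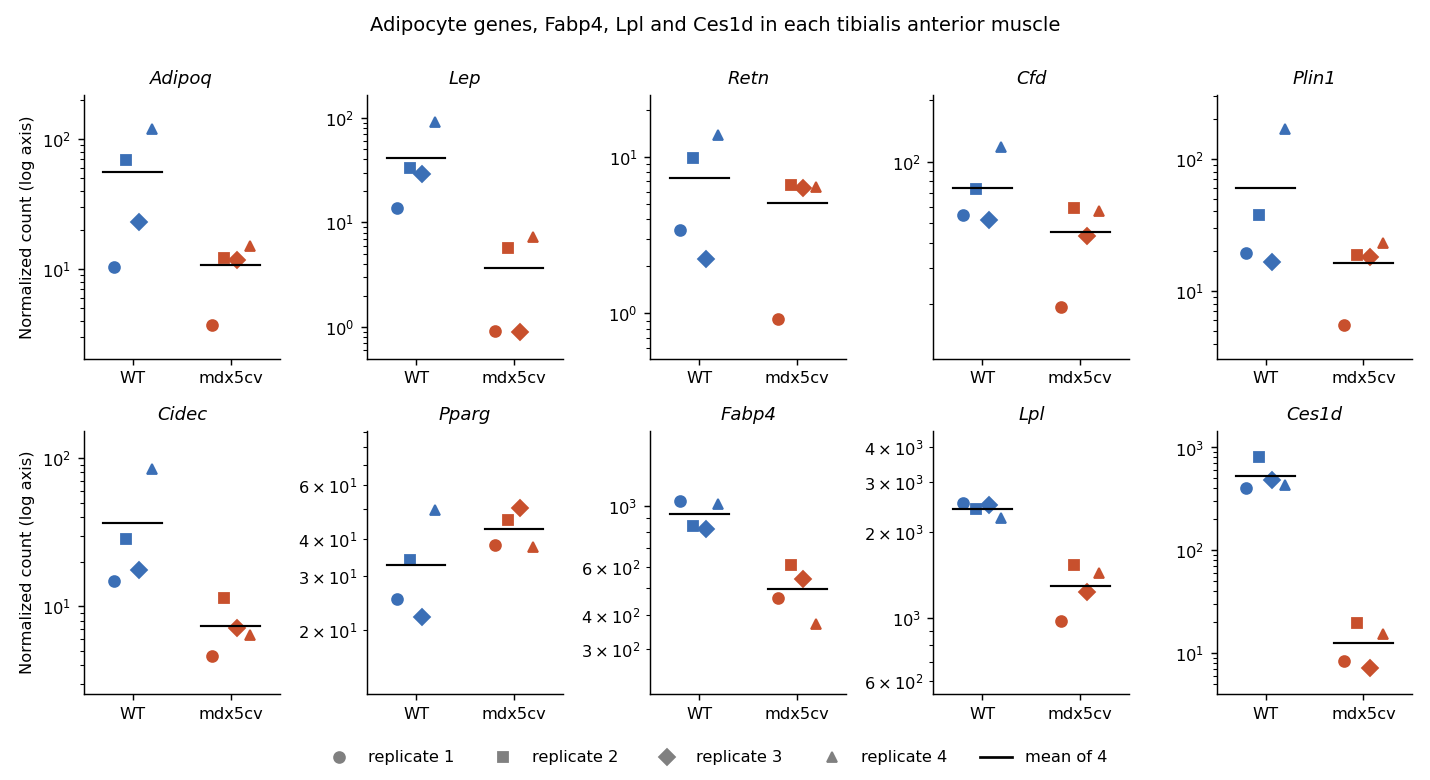
Normalized counts (log axes, a scale for each gene) of the 10 genes in the 4 WT (blue) and 4 mdx5cv (orange) muscles, with a symbol for each replicate number and a line at the mean of 4. Ces1d, Lep, Cidec, Fabp4 and Lpl do not overlap between the groups, and WT 4 (triangle) is the highest WT muscle for all 6 of Adipoq, Lep, Retn, Cfd, Plin1 and Cidec. Of all genes tested, 27.8% were highest in WT 4 among WT muscles.

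Among the adipokines, Lep encodes leptin, the hormone that signals fat stores to the brain (ENSMUSG00000059201.12, protein coding, chr6:29060220-29073877, plus strand, GRCm38). Its normalized counts were 13.8, 32.9, 28.7 and 91.1 in WT 1 to 4 and 0.926, 5.66, 0.900 and 7.19 in mdx5cv 1 to 4. Every mdx5cv muscle lay below every WT muscle, and mdx5cv 1 and 3 rested on 1 read each. The mean fell 11.3-fold, from 41.6 ± 34.0 to 3.67 ± 3.24. The log2 fold change was -3.19 with an SE of 0.60 (95% interval -4.49 to -1.88, adjusted p = 0.00109). The mdx5cv level rested on 17 reads in all 4 libraries together, against 154 in WT.

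Adipoq encodes adiponectin, the most abundant hormone of fat (ENSMUSG00000022878.5, protein coding, chr16:23146536-23158028, plus strand). Normalized counts of this gene were 10.3, 69.1, 23.2 and 121 in WT and 3.71, 12.3, 11.7 and 15.2 in mdx5cv muscle. The groups overlapped, because WT 1 was lower than 3 of the mdx5cv muscles, and the WT muscles differed among themselves more than 10-fold. The means were 55.8 ± 50.1 and 10.7 ± 4.92, and the log2 fold change was -1.88 with an SE of 0.62 (95% interval -3.22 to -0.53, adjusted p = 0.0282). This call was lost without WT 2 (-1.60, adjusted p = 0.0837), without WT 4 (-1.33, adjusted p = 0.089) or without mdx5cv 1 (-1.48, adjusted p = 0.0843), and when libraries were scaled to equal totals (-1.55, adjusted p = 0.0578).

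Cfd encodes adipsin, also known as complement factor D (ENSMUSG00000061780.6, protein coding, chr10:79890853-79892655, plus strand). In normalized counts it stood at 55.0, 73.5, 52.0 and 118 in WT and 19.5, 59.4, 43.2 and 57.5 in mdx5cv muscle, where mdx5cv 2 and mdx5cv 4 lay within the WT range. The difference of 74.5 ± 30.2 against 44.9 ± 18.4 did not pass the test (log2 fold change -0.76, SE 0.34, 95% interval -1.49 to -0.03, adjusted p = 0.0890).

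Retn encodes resistin, which in mice is made by fat cells (ENSMUSG00000012705.16, protein coding, chr8:3655770-3660110, plus strand). The muscles held normalized counts of 3.44, 9.87, 2.21 and 13.8 in WT and 0.926, 6.60, 6.30 and 6.39 in mdx5cv muscle. The groups overlapped, and with 27 reads over the WT and 23 over the mdx5cv libraries the gene stayed under the level set for the test. Without that minimum its log2 fold change was -0.38 (adjusted p = 0.661), so a difference was not detectable at this depth.

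The droplet proteins came next. Cidec encodes a protein that fuses small lipid droplets into large ones (ENSMUSG00000030278.11, protein coding, chr6:113424634-113435760, minus strand). Its normalized counts were 14.9, 28.5, 17.7 and 84.7 in WT and 4.63, 11.3, 7.20 and 6.39 in mdx5cv muscle. All mdx5cv muscles lay below all WT muscles, although WT 1 and mdx5cv 2 were near each other. The mean fell from 36.5 ± 32.7 to 7.39 ± 2.83, with a log2 fold change of -1.87 and an SE of 0.47 (95% interval -2.89 to -0.85, adjusted p = 0.00689). The call held with each muscle left out in turn, at -2.17 to -1.36.

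Plin1 encodes perilipin 1, which guards the droplet of fat cells against lipases (ENSMUSG00000030546.14, protein coding, chr7:79720218-79732903, minus strand). Normalized counts of this gene were 19.5, 37.3, 16.6 and 167 in WT and 5.56, 18.9, 18.0 and 23.2 in mdx5cv muscle. All mdx5cv muscles but mdx5cv 1 lay within the WT range, and WT 4 stood far above the other WT muscles. The means were 60.2 ± 72.0 and 16.4 ± 7.57, and the log2 fold change of -1.32 (SE 0.61, 95% interval -2.64 to 0.00) did not pass the test (adjusted p = 0.102). The edgeR quasi-likelihood test on recovered reads called it lower (-1.86, adjusted p = 0.039), DESeq2 did not (-1.87, adjusted p = 0.0846), and without WT 4 the limma value was -0.62 (adjusted p = 0.302).

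Pparg encodes the nuclear receptor that drives fat cell formation and is also made by macrophages (ENSMUSG00000000440.12, protein coding, chr6:115360951-115490399, plus strand). In normalized counts it stood at 25.2, 34.0, 22.1 and 49.8 in WT and 38.0, 46.2, 50.4 and 37.6 in mdx5cv muscle. It was the only gene of the 10 with a higher mean in mdx5cv muscle, 43.0 ± 6.33 against 32.8 ± 12.4, and WT 4 lay among the mdx5cv values. The log2 fold change of 0.44 (SE 0.25, 95% interval -0.10 to 0.98) did not pass the test (adjusted p = 0.178). Its adjusted p fell under 0.05 without WT 4 (0.66, adjusted p = 0.0363) and under equal totals (0.79, adjusted p = 0.0273), a scaling that moved the median of all genes tested from 0.00 to 0.36, but neither value reached the fold threshold.

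Fabp4 encodes the fatty acid binding protein of fat cells and of capillary endothelium (ENSMUSG00000062515.3, protein coding, chr3:10204088-10208576, minus strand). The muscles held normalized counts of 1043, 844, 823 and 1016 in WT and 460, 610, 541 and 371 in mdx5cv muscle, with no overlap. The mean fell 1.88-fold, from 931 ± 114 to 496 ± 103 (log2 fold change -0.92, SE 0.15, 95% interval -1.24 to -0.61, adjusted p = 0.000330). WT 4, the highest WT muscle for the adipocyte genes, was not the highest for Fabp4.

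Lpl encodes lipoprotein lipase, which muscle fibers and fat cells make for the capillary wall (ENSMUSG00000015568.16, protein coding, chr8:68880491-68907448, plus strand). Its normalized counts were 2532, 2415, 2501 and 2243 in WT and 973, 1535, 1237 and 1445 in mdx5cv muscle, again with no overlap. The mean fell 1.87-fold, from 2423 ± 130 to 1297 ± 250 (log2 fold change -0.92, SE 0.13, 95% interval -1.21 to -0.63, adjusted p = 0.000150). Among the WT muscles WT 4 was the lowest for Lpl, the reverse of its place for the adipocyte genes. Without mdx5cv 2 both genes crossed the fold threshold, at -1.03 for Fabp4 and -1.01 for Lpl. With libraries scaled to equal totals they moved away from it, to -0.57 for Fabp4 and -0.56 for Lpl.

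Ces1d encodes a carboxylesterase that hydrolyzes stored triglyceride in liver and fat (ENSMUSG00000056973.6, protein coding, chr8:93166068-93197838, minus strand). Normalized counts of this gene were 400, 808, 484 and 435 in WT and 8.34, 19.8, 7.20 and 15.2 in mdx5cv muscle. The lowest WT muscle stood far above the highest mdx5cv muscle, and WT 2, not WT 4, was the highest. The mean fell from 532 ± 187 to 12.6 ± 5.94, with a log2 fold change of -5.34 and an SE of 0.29 (95% interval -5.97 to -4.70, adjusted p = 1.71e-07). The mdx5cv level rested on 57 reads, against 1935 in WT. The call held in all 18 alternatives that kept the gene, at -5.57 to -4.56. A filter of at least 10 normalized counts in every muscle removed it. A short unclassified annotation, Gm45909, overlaps Ces1d on the same strand, so reads could be split between them, and it had 25.9 normalized counts on average in WT and 0.661 in mdx5cv muscle.

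**Figure D2:**
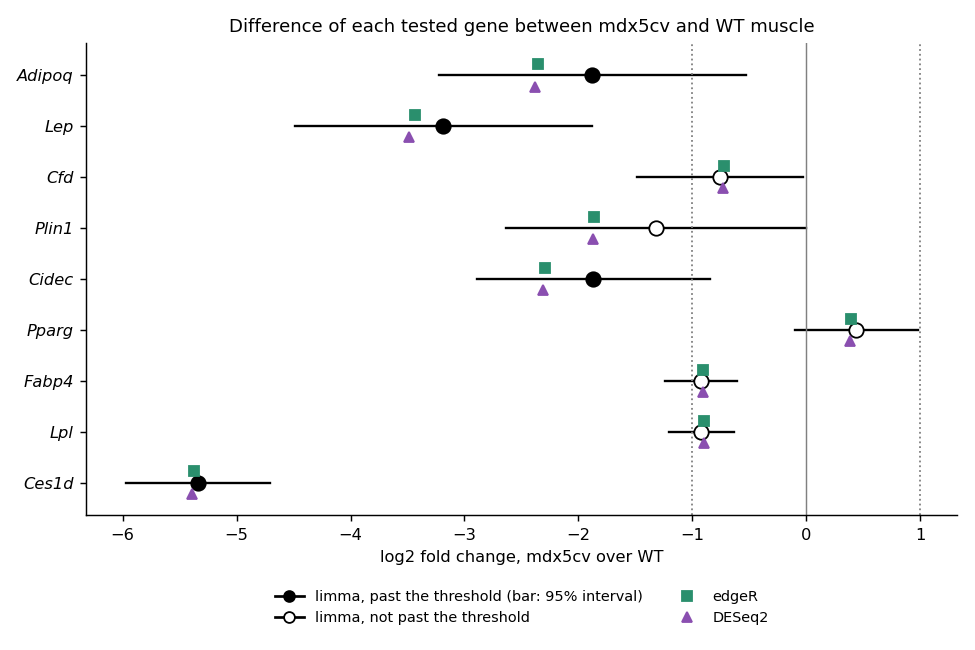
Log2 fold change of mdx5cv over WT muscle for the 9 genes tested, from limma with its 95% interval (circles, filled past the threshold), with the edgeR (squares) and DESeq2 (triangles) values on recovered reads; dotted lines mark a log2 fold change of -1 and 1. Ces1d lies at -5.34, Lep at -3.19, Fabp4 and Lpl at -0.92 just short of the line, and Pparg at 0.44 on the other side of 0.

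The order of the genes by level also differed between the groups. Per kilobase of exon, the WT level was 231 normalized counts for Lpl, 225 for Ces1d and 207 for Fabp4, and these 3 genes overlapped across muscles. Exon length took all annotated exons of a gene together, 10478 bases for Lpl, 2369 for Ces1d and 4489 for Fabp4. The order of genes therefore depends on the annotation and not only on the RNA. Cfd followed at 80.8 per kilobase, with all its WT values below those of Fabp4, then Adipoq at 40.4, Cidec at 19.6, Plin1 at 12.9, Lep at 12.4, Pparg at 11.1 and Retn at 4.64, each overlapping its neighbor. In mdx5cv muscle Lpl (124 per kilobase) and Fabp4 (110) stayed at the top and overlapped. Ces1d moved from the second to the sixth place, at 5.33 per kilobase, between Adipoq (7.76) and Cidec (3.98), both of which it overlapped. Cfd (48.7 per kilobase) and Pparg (14.6) held places of their own there with no overlap with their neighbors. Plin1 (3.53 per kilobase), Retn (3.20) and Lep (1.09) came last and overlapped in this order.

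The muscles within a group were uneven for the adipocyte genes. All 6 of Adipoq, Cidec, Plin1, Lep, Cfd and Retn were highest among WT muscles in WT 4, where 27.8% of all genes tested were. Of these 6, 5 were lowest among mdx5cv muscles in mdx5cv 1, for which no share of all genes was worked out. Their summed level was 117, 251, 140 and 595 normalized counts in WT and 35.2, 114, 87.3 and 116 in mdx5cv muscle. The WT sum thus nearly met the mdx5cv range in WT 1, at 117 against 116 in mdx5cv 4, and lay well above it in WT 4. Fold changes with each muscle left out in turn show how far single muscles carried each gene.

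**Figure D3:**
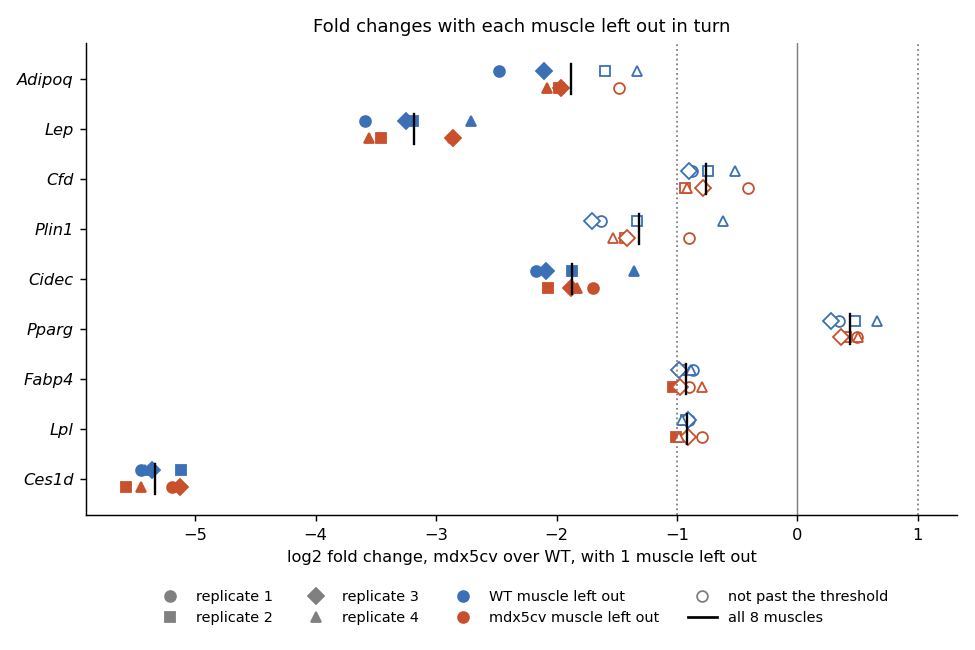
Log2 fold change of mdx5cv over WT muscle for the 9 genes tested with 1 muscle left out in turn (blue, a WT muscle; orange, an mdx5cv muscle; filled, past the threshold), with a black line at the value from all 8. Without WT 4 (blue triangle) Adipoq moved to -1.33 and Plin1 to -0.62, while Ces1d stayed between -5.57 and -5.12.

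Ces1d and the adipocyte genes were then set side by side within each muscle. Within WT, Adipoq ranged from 10.3 to 121 normalized counts and Ces1d from 400 to 808, and the muscle with the most Adipoq, WT 4, was the second lowest for Ces1d. The ratio of Ces1d to Adipoq counts within a muscle was 38.8, 11.7, 20.9 and 3.61 in WT and 0.615 to 2.25 in mdx5cv muscle. Against the sum of the 6 adipocyte genes, Ces1d counts stood at 3.42, 3.22, 3.45 and 0.731 in WT and at 0.237, 0.174, 0.0825 and 0.131 in mdx5cv muscle. In WT 1 to 3 the latter ratio was thus nearly even, and WT 4 alone stood apart. Both ratios were lower in every mdx5cv than in every WT muscle. They were chosen after the values were seen and were not tested.

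**Figure D4:**
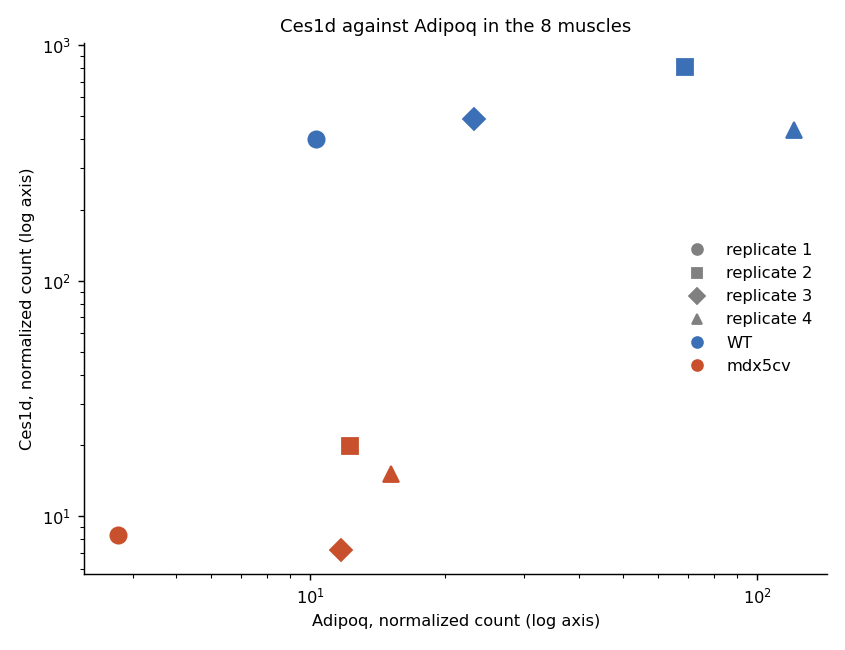
Normalized counts of Ces1d against Adipoq (both log axes) in the 8 muscles, with a symbol for each replicate number. The WT muscles (blue) spread along the Adipoq axis from 10.3 to 121 at 400 to 808 Ces1d counts, and the mdx5cv muscles (orange) lie at 7.20 to 19.8 Ces1d counts.

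The 5 genes whose pattern over the 8 muscles was most like that of Ces1d were sought by the root mean square difference of centered log2 values. They were BC048679 (0.43), Dach2 (0.47), 1700001O22Rik (0.66), Exph5 (0.69) and Gm42047 (0.80), none of which is an adipocyte gene on the lists used here. The difference between the groups enters this distance. Lep, the adipocyte gene tested with the largest fall, was at -3.19 against -5.34 for Ces1d, so no adipocyte gene tested could rank among the 5. The ranking therefore does not show whether Ces1d follows the fat cell genes. Dach2, a transcriptional cofactor of the dachshund family, had 140, 203, 111 and 79.4 normalized counts in WT and 1.85, 3.77, 0.900 and 0.799 in mdx5cv muscle. All its mdx5cv values lay below all its WT values. Gm42047 was at 22.8 on average in WT and at 0 in every mdx5cv muscle.

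The 5 genes most like Adipoq were Nnat (0.25), Pck1 (0.52), Plin1 (0.57), Cidec (0.57) and Cdo1 (0.72). Nnat, an imprinted gene also made in fat cells, had 6.88, 40.6, 14.4 and 110 normalized counts in WT and 2.78, 5.66, 7.20 and 10.4 in mdx5cv muscle, so that the order of the muscles within WT was that of Adipoq. Pck1, the enzyme that supplies glycerol for triglyceride in fat, had 8.02, 27.4, 11.1 and 107 in WT and 2.78, 12.3, 14.4 and 16.8 in mdx5cv muscle. Pck1 did not pass the test (log2 fold change -1.15, adjusted p = 0.202).

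Other genes of fat cells and lipid handling were taken from fixed lists, which together held 115 genes besides the 10, of which 78 were tested. Of these 78, 10 were called lower and 8 higher, where 3.27% of all genes tested were called lower and 10.3% higher, and the counts of each list below are to be read against these shares. Under equal totals the calls were 5 lower and 11 higher. Of 16 further white adipocyte genes 11 were tested, 2 were called lower and none higher. Their median log2 fold change was -0.67, against 0.00 for all genes tested. This median is the value of Gpd1, named after its values were seen, which had 6749 ± 975 normalized counts in WT where Adipoq had 55.8 ± 50.1. Which cells of the muscle gave the Gpd1 reads was not tested. The 2 called lower were Nnat (-1.97, adjusted p = 0.0294) and Sncg, which encodes gamma-synuclein (36.1 ± 14.2 to 15.9 ± 12.0, -1.38, adjusted p = 0.0334). The groups overlapped for both. Nnat, with a mean of 6.51 in mdx5cv muscle, entered the test through its WT level. Of the 11 genes, 9 were highest among WT muscles in WT 4, where 27.8% of all genes tested were. Aoc3 (0.30, adjusted p = 0.463) and Pde3b (0.26, adjusted p = 0.454), named after their values were seen, had higher means in mdx5cv muscle without passing the test. Adig, an adipocyte gene too low to test, had 13.8 to 24.1 normalized counts in WT and fewer than 4 in each mdx5cv muscle. The other untested genes of this list overlapped between the groups.

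Of 8 brown adipocyte genes 4 were tested, and 1 was called lower and 1 higher. The summed level of the 8 was 1988 to 2265 normalized counts in WT and 1266 to 1776 in mdx5cv muscle, most of it from Cox8b, a cytochrome oxidase subunit that muscle also makes (1984 ± 108 to 1338 ± 279, log2 fold change -0.59, adjusted p = 0.00484). Ucp1, the uncoupling protein that defines brown fat, was at 0 in every WT muscle and at most 2.40 normalized counts in mdx5cv muscle. Dio2, which activates thyroid hormone, rose (32.8 ± 14.1 to 172 ± 75.3, log2 fold change 2.41, adjusted p = 0.000266). Zic1, a zinc finger factor, fell (22.3 ± 10.1 to 5.67 ± 6.55, -2.18, adjusted p = 0.00952). The groups overlapped for Zic1, and it too entered the test through its WT level.

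Of 16 adipogenic transcription factors and cofactors all were tested, 1 was called higher and none lower, a share no greater than that of all genes, and the median log2 difference was -0.16. The one called was Cebpa, a C/EBP factor of fat cells that myeloid cells also make. In normalized counts it stood at 24.1, 40.6, 33.2 and 59.3 in WT and 104, 107, 88.2 and 183 in mdx5cv muscle, with no overlap (log2 fold change 1.61, SE 0.27, adjusted p = 0.000486). Cebpa thus moved opposite to Adipoq, Lep and Cidec.

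Among 17 lipid droplet and lipolysis genes, 15 were tested, 2 were called lower and none higher, with a median of -0.49. Plin5, the perilipin of oxidative tissues, had 107, 199, 167 and 142 normalized counts in WT and 21.3, 50.9, 23.4 and 23.2 in mdx5cv muscle. It did not overlap between the groups (log2 fold change -2.39, SE 0.27, adjusted p = 2.27e-05). Abhd6, a monoacylglycerol lipase, fell as well (-1.17, adjusted p = 0.000614).

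Among 18 genes of fatty acid and triglyceride synthesis, 16 were tested, 1 was called lower and 1 higher, with a median of -0.25. Dgat2, which makes the last step of triglyceride synthesis, had 214, 303, 260 and 219 normalized counts in WT and 25.9, 129, 61.2 and 48.7 in mdx5cv muscle, with no overlap (log2 fold change -2.11, SE 0.35, adjusted p = 0.000390). Elovl6, a fatty acid elongase, rose from a low level (11.3 ± 1.84 to 25.0 ± 8.22, 1.03, adjusted p = 0.0146).

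Of 17 partners of lipoprotein lipase and fatty acid carriers, 11 were tested, 3 were called lower and 2 higher, with a median of 0.08. Gpihbp1, which anchors lipoprotein lipase on capillary endothelium, had 194, 315, 240 and 197 normalized counts in WT and 88.9, 133, 113 and 70.3 in mdx5cv muscle (log2 fold change -1.22, SE 0.20, adjusted p = 0.000437). It fell together with Lpl without overlap of the groups. Cd36, a fatty acid transporter, fell (3578 ± 966 to 1643 ± 225, -1.09, adjusted p = 0.000231), and so did Fabp3, the carrier of muscle fibers (2137 ± 581 to 566 ± 154, -1.92, adjusted p = 1.84e-05). Fabp5, a carrier of skin and macrophages, rose (55.1 ± 11.2 to 195 ± 83.2, 1.74, adjusted p = 0.000120), and Apoe, a lipoprotein component that macrophages secrete, rose too (441 ± 77.4 to 1715 ± 787, 1.88, adjusted p = 4.63e-05). The 3 fatty acid carriers Fabp3, Fabp4 and Fabp5 thus did not share a direction. Angptl4, an inhibitor of lipoprotein lipase, had a log2 fold change of 1.07 and did not pass the test (adjusted p = 0.0632).

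The receptors and signaling partners of adiponectin, leptin and resistin were all tested, and of these 8 genes 1 was called lower and 3 higher. Lepr, the leptin receptor, had 67.6, 59.2, 45.3 and 35.0 normalized counts in WT and 7.41, 36.8, 12.6 and 17.6 in mdx5cv muscle, where only mdx5cv 2 and WT 4 overlapped (log2 fold change -1.61, SE 0.39, adjusted p = 0.00499). Lep and Lepr were thus both lower. The adiponectin receptors fell by less than the fold threshold, Adipor2 by 0.82 (adjusted p = 0.000239) and Adipor1 by 0.49 (adjusted p = 0.00232) on the log2 scale. Cdh13, a cell surface binder of adiponectin, was higher (0.35, adjusted p = 0.00617). Socs3, an inhibitor of leptin and cytokine signaling, rose from 26.2 ± 8.93 to 119 ± 27.3 (2.18, adjusted p = 3.19e-05). The remaining calls were Tlr4 (1.11) and Cap1 (1.02), both described as binding partners of resistin.

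Of 20 carboxylesterase genes Ces1d was the only one to reach a mean of 10 normalized counts. No read fell on 5 of them in any library. Ces1e, a near neighbor in sequence, was singled out after its values were seen, with 12.7 to 16.5 normalized counts in WT and 0 to 2.40 in mdx5cv muscle. Reads of such paralogs can be hard to assign, so the value of Ces1e is uncertain, and its WT mean of 14.6 was small beside the 532 of Ces1d.

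Marker genes of other cells moved with the groups. The summed level of 8 endothelial markers, none of them at 0, was 3410 to 4140 normalized counts in WT and 2118 to 2717 in mdx5cv muscle, and the median log2 fold change was -0.73. None of the 8 was called, and 7 were lower at the adjusted p alone, against 20.1% of all genes tested. Beside Fabp4 and Lpl, at -0.92 each, this is a shift in the same direction, whose part in their fall was not tested. Equal totals, which moved Fabp4 to -0.57 and Lpl to -0.56, were not applied to the marker sums or their medians. The ratio of Fabp4 to Pecam1 counts, Pecam1 being an endothelial adhesion molecule, was 1.34, 1.26, 1.15 and 1.38 in WT and 1.15, 1.28, 1.14 and 0.935 in mdx5cv muscle, and the groups overlapped. The ratio of Lpl to Gpihbp1 counts was 7.67 to 13.1 in WT and 10.9 to 20.5 in mdx5cv muscle, also with overlap. These ratios were chosen after the values were seen.

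The 8 macrophage markers summed to 596 to 900 normalized counts in WT and 3978 to 9649 in mdx5cv muscle, with 7 called higher and 1 lower and none at 0. Of the 7, Itgam (3.88 ± 1.47 to 52.4 ± 8.50) entered the test through its mdx5cv level. Of all genes tested, 10.3% were called higher and 3.27% lower. Most of the mdx5cv sum came from Lyz2 (243 ± 49.0 to 3285 ± 1416), and the marker called lower was Cd163 (83.6 ± 20.7 to 28.6 ± 4.58, -1.49, adjusted p = 0.000131). The 8 markers of fibro-adipogenic progenitors and fibroblasts summed to 5620 to 8458 in WT and 18056 to 32095 in mdx5cv muscle, with 4 called higher, none lower and none at 0. Most of that rise came from Col1a1 (780 ± 161 to 6996 ± 2217) and Col3a1 (1485 ± 402 to 12659 ± 3557), the chains of fibrillar collagens. Without these 2 genes, a choice made after the values were seen, the other 6 summed to 2654 to 6014 in WT and 3500 to 4692 in mdx5cv muscle and overlapped, and Dcn (-0.24, adjusted p = 0.425) and Ly6a (-0.30, adjusted p = 0.244) had lower means in mdx5cv muscle. The macrophage sum and this full sum moved in the direction of Cebpa, Fabp5 and Apoe and of the higher mean of Pparg, and their part in those values was not tested. The 8 defining adipocyte markers, which include 6 of the genes described here, summed to 146 to 656 in WT and 49.1 to 130 in mdx5cv muscle, with none at 0. The lowest WT sum, in WT 1, lay near the highest mdx5cv sum, in mdx5cv 4, and the size factors of these muscles were 0.873 and 1.25. Whether the adipocyte sums stay apart under equal totals was not worked out. Among 6 smooth muscle and pericyte markers none was called. At the adjusted p alone 2 were lower, Myh11 (-0.87, adjusted p = 0.000379) and Rgs5 (-0.87, adjusted p = 0.000206), and 3 were higher, Acta2, Cspg4 and Pdgfrb. Of the 13677 genes tested, 2743 were lower and 2854 higher at the adjusted p alone. The sums of the 6 markers, 31429 to 35074 in WT and 30067 to 32819 in mdx5cv muscle, overlapped, but were mostly Des, also a fiber gene. Without Des, again a choice made after the values were seen, the sums were 5955 to 7271 in WT and 4371 to 5076 in mdx5cv muscle.

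**Figure D5:**
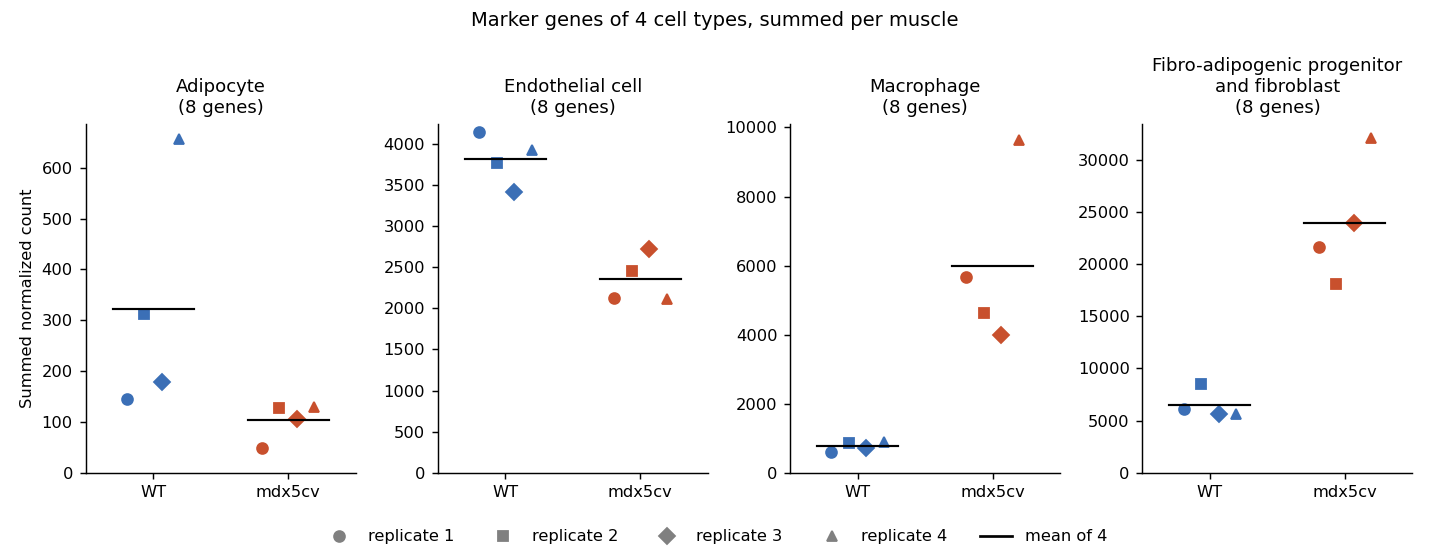
Summed normalized counts of 8 marker genes each of adipocytes, endothelial cells, macrophages, and fibro-adipogenic progenitors and fibroblasts, in the 4 WT (blue) and 4 mdx5cv (orange) muscles, from 0, with a line at the mean of 4. On these normalized counts the adipocyte and endothelial sums lie lower in all mdx5cv muscles and the other sums higher, the last mostly through Col1a1 and Col3a1. WT 4 stands apart with an adipocyte sum of 656, while WT 1 (146) lies near mdx5cv 4 (130). The sums were not worked out under equal totals.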

How the data were processed

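Total RNA of whole TA muscles was sequenced from 8 libraries, 4 per genotype, grouped by their labels, after a stranded total RNA preparation. The submitters' processing notes name Trim Galore 0.6.4, STAR 2.6.0c, SAMtools 1.9, featureCounts, DESeq2 1.26.0 and the build mm10, with no settings. The authors deposited 1 table of 55401 genes whose values are a signal, that is reads divided by a size factor. Multiplied by the size factor, 100% of the values came out whole (tolerance 0.01), which gave 13175524 to 14921057 reads per library. This depth bounds low genes, and no sampling error beyond the replicates was modelled in the main test.

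The main test was limma 3.58.1 (R 4.3.3, variance trend) on log2(normalized count + 1) for the 13677 genes with a mean of at least 10, with Benjamini-Hochberg adjustment over all of them. Fold changes on this scale understate the change of low genes. The threshold (adjusted p under 0.05, log2 fold change of at least 1 in size) is that of the study's methods for its other RNA-seq. On the recovered reads, edgeR 4.0.16 and DESeq2 1.42.0 were alternatives, beside other pseudocounts, filters, scalings, a replicate block and each library left out. The scripts were tested on simulated data. No 2 libraries agreed within sampling noise (chi-square per degree of freedom at least 8.59).

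The 10 genes, the other lists and the markers were chosen with earlier results of these data known. Named were the 10 genes and Dmd, up to 4 called genes of the largest fold change per list, Adipor1, Adipor2, Cdh13, Lepr, Gpihbp1, Angptl4, Cd36, and the 5 genes nearest to Ces1d and to Adipoq. Genes outside this rule are marked as such, or stand only as members of a marker list or as low genes (Adig, Ucp1, Cox8b, Gm45909, Pecam1), named after their values were seen. Positions and exon lengths are from GENCODE M21 (GRCm38).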

Additional observations from a re-analysis of the deposited data

Results flagged for a closer look

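Of the 20 sets of 4 muscles examined, 1 held a muscle far from the rest, where chance gives about 1. Retn in mdx5cv 1 stood at 0.926 normalized counts against 6.30 to 6.60 in the other mdx5cv muscles. Its gap was 0.971 of the range on the log2 scale, above Dixon's critical value for 4 samples. The value rests on 1 read, and mdx5cv 1 was also the lowest mdx5cv muscle for Adipoq, Plin1, Cidec and Cfd.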

How the results depend on the processing

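Over 166 alternatives for the 9 genes tested, 155 kept their side of the threshold, 5 lost a call, 6 gained one and none changed direction. The count of the 10 genes called lower was 4, and 3 to 6 without 1 muscle, with Adipoq lost without WT 2, WT 4 or mdx5cv 1 and Fabp4 and Lpl gained without mdx5cv 2. It was 2 at a log2 fold change of at least 2 and 0 where each muscle had to reach 10 normalized counts, a filter that removed all 4. It was 6 at the adjusted p alone. None of the 10 was called higher under any alternative, edgeR and DESeq2 included; at an unadjusted p under 0.05 the limma count was also 0, since the 95% interval of Pparg, the only gene with a higher mean, took in 0. Centering each library on its median also brought Fabp4 (-1.02) and Lpl (-1.02) past the threshold. Under equal totals both falls were smaller, at -0.57 for Fabp4 (adjusted p = 0.00318) and -0.56 for Lpl (adjusted p = 0.00474). Scaling to equal totals moved the median of all genes by 0.36 and the calls from 1414 higher and 447 lower to 2256 and 210, and in the other lists it left 5 genes lower against 10. Without a variance trend Adipoq was at an adjusted p of 0.0649. Correlations of same-numbered deviations between the groups were 0.0501, 0.0309, 0.0722 and 0.146, and those of different numbers were -0.148 to 0.0741. All were small, and whether replicate numbers pair the muscles cannot be told from them. With the replicate block 5 of the 10 genes were lower, Plin1 (adjusted p = 0.0204) being added, and 11 lower and 9 higher in the other lists. Adipoq then had an adjusted p of 0.00153 and Cfd of 0.0203, Cfd staying short of the fold threshold. Depth limits Retn and the mdx5cv level of Lep, which rest on 1 to 9 reads per mdx5cv library.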
